A study of Mus musculus with 12 samples.

Results

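The integrated stress response and ferroptosis genes examined here are Atf4, Ddit3, Chac1, Trib3, Asns, Slc7a11, Slc3a2, Gpx4, Acsl4 and Aifm2. They were followed through the ATAC-seq peaks that overlap each gene's annotated span or lie within 20 kb of it. Peaks of 12 mouse hepatocyte libraries were merged over libraries, which gave 135 regions at these 10 genes among 292665 regions in all. Of the 135, the 89 found among the kept peaks of 3 or more of the 12 libraries were tested, out of 138538 tested in all. ATAC-seq uses a transposase that cuts and tags accessible DNA, so a peak marks a stretch of open chromatin. In bulk libraries such as these, fewer cells with a region open and less opening per cell cannot be told apart.

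The 4 groups of 3 mice, with 1 library per mouse, were Fbxl5-deleted mice (Alb-Cre/FBXL5F/F) on the DDC diet, floxed controls (FBXL5F/F) on the DDC diet, Fbxl5-deleted mice on the standard diet and floxed controls on the standard diet. All 12 mice carried floxed Fbxl5 alleles, and in the deleted mice Cre was driven by the albumin promoter, which is active in hepatocytes. The DDC diet held 0.1% of 3,5-diethoxycarbonyl-1,4-dihydrocollidine, a porphyrinogenic compound that causes cholestasis, and was given for 2 weeks. FBXL5 is the substrate receptor of a ubiquitin ligase that degrades iron regulatory proteins, so its loss raises the labile iron pool. The sources used here give no age, sex or strain for the mice.

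The integrated stress response is a pathway in which stress-activated kinases phosphorylate the translation factor eIF2, most protein synthesis slows, and the transcription factor ATF4 is translated preferentially. ATF4 then turns on genes of amino acid supply, such as Asns and Slc7a11, and, with CHOP (the product of Ddit3), the genes Trib3 and Chac1. Ferroptosis is an iron-dependent form of cell death driven by peroxidised membrane lipids. The 2 sets of genes meet at the cystine antiporter: SLC7A11 and SLC3A2 import cystine for glutathione, CHAC1 degrades glutathione, and GPX4 uses it to reduce lipid peroxides.

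The values below are rank-based. Each region was ranked by the peak caller's fold enrichment within its library, and the rank was placed on the mean log2 fold enrichment scale of the 12 libraries, so a value is a log2 level relative to the other regions of the same library. A library in which a region was not among the strongest 137034 peaks was given the lowest value of the scale, log2 1.27, and any difference that includes a library at 1.27 rests in part on this value. Differences are given with the standard error of the limma fit over all tested regions, and a region was called at a Benjamini-Hochberg adjusted p under 0.05.

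The deposited lists held 137034 to 262080 peaks, and 2 of them, Fbxl5-deleted 1 and 3 on the standard diet, stood apart at 262080 and 260622 against 137034 to 202912 in the other 10. Strong peaks, those whose −log10 q was 5 or more, numbered 70044 to 86745 in the 6 DDC libraries and 46949 to 70517 in the 6 standard-diet libraries. At the marker genes, the hepatocyte list had 4 or 5 of 7 gene starts covered by a peak in each library, with Ttr and Cps1 at none. The cholangiocyte list had 1 or 2 of 7 starts covered, the stellate list 2 or 3 of 7, the endothelial list 1 of 6 and the lymphocyte list 0 of 6. The macrophage list had 1 or 2 of 6 starts covered on DDC and 0 or 1 on the standard diet, with Adgre1, Csf1r, Clec4f and Spi1 at none in any library. Summed rank-based fold enrichment over the macrophage starts was 2.53 to 5.50 in Fbxl5-deleted and 2.59 to 5.70 in control DDC libraries, against 0 to 3.23 in Fbxl5-deleted and 0 to 2.79 in control standard-diet libraries. The macrophage sums were higher on DDC with some overlap. Over the cholangiocyte starts the sum was 3.99 to 5.02 in Fbxl5-deleted and 3.27 to 4.31 in control DDC libraries, against 8.63 to 10.7 in Fbxl5-deleted and 5.75 to 8.30 in control standard-diet libraries, lower on DDC with no overlap. Krt19, Sox9, Epcam and Cftr were at none in any library, so this sum is mostly the start of Spp1. Over the stellate starts it was 14.5 to 19.9 in Fbxl5-deleted and 20.8 to 24.8 in control DDC libraries, with no overlap, and 17.1 to 24.5 in Fbxl5-deleted and 21.4 to 25.6 in control standard-diet libraries. Acta2, Des, Col1a1 and Pdgfrb were at none in any library, so this sum is mostly the starts of Lrat and Reln. In Fbxl5-deleted and control DDC libraries the mean log2 level was 2.90 and 3.55 at Lrat, 2.98 and 3.04 at Reln, and 1.48 and 1.71 at Col1a2. Hepatocyte and endothelial sums overlapped between diets and between genotypes. The part of these marker shifts in the differences below was not tested.

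The promoters of 4 of the genes are shown because they hold the letters of the element that ATF4 binds together with C/EBP proteins, and because these stretches lie inside regions that were open in all 12 libraries. The element was searched as TGATGNAA on both strands of the 300 bases from 250 before to 50 after each start (RefSeq, GRCm38.p6, the assembly of mm10). It occurred in 3.6% of 21262 mouse promoters and in 4 of the 10 genes. Sequences run 5′ to 3′ on the strand of the gene, and capitals mark the matches.
Slc7a11: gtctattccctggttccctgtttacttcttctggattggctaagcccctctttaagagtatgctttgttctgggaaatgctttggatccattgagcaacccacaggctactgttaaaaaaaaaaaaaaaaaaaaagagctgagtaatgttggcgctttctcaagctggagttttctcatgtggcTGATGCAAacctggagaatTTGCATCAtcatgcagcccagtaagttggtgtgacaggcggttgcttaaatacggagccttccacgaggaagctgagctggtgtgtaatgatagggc
Asns: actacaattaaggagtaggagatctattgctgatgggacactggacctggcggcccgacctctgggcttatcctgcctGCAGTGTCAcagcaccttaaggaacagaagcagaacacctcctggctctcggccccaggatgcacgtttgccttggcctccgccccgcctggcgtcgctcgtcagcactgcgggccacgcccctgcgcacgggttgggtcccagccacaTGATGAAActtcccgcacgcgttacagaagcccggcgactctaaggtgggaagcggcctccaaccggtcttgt
Chac1: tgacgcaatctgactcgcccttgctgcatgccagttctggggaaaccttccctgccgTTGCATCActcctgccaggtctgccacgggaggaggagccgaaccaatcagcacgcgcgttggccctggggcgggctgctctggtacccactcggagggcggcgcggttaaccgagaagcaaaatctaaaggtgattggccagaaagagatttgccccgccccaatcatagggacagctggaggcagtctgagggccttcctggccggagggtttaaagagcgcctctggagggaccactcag
Trib3: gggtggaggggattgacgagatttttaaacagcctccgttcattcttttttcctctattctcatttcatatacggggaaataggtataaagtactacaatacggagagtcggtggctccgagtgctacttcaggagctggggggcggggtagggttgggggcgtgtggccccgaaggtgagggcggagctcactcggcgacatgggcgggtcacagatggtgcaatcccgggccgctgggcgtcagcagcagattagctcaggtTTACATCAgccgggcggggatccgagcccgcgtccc
These windows lie at chr3:50443564-50443863 (Slc7a11, minus strand), chr6:7693160-7693459 (Asns, minus strand), chr2:119350992-119351291 (Chac1, plus strand) and chr2:152344011-152344310 (Trib3, minus strand).

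The Slc7a11 window held the element on each strand, as TGATGCAA at −66 to −59 and as its reverse complement, TTGCATCA, at −47 to −40 from the start. In Asns, TGATGAAA lay at −23 to −16. In Chac1 the element lay on the opposite strand at −193 to −186, and in Trib3 on the opposite strand at 14 to 21, inside the transcribed part. In Asns the capitals also mark GCAGTGTCA at −172 to −164, the reverse complement of a match to the antioxidant response element TGACNNNGC that NRF2 binds, which occurred in 13.0% of all promoters and in 1 of the 10 genes. The endoplasmic reticulum stress element, searched as CCAAT and CCACG with 9 free bases between them, was in 0.141% of promoters and in 0 of the 10. A match is a run of letters in this window and not a measured binding site.

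Chromatin at a transcription start of the RefSeq table was open in all 12 libraries at 8 of the 10 genes: Slc3a2, Acsl4, Trib3, Asns, Chac1, Gpx4, Slc7a11 and Ddit3. Among 17491 coding genes, 54.9% had a start covered in all 12 libraries and 36.8% in none. Set against the starts covered in all 12, whose median level was 3.53, the Slc3a2 start stood above 75.0% of them, Acsl4 above 58.8% and Trib3 above 50.1%. The other starts were lower in that order, at 33.0% for Asns, 30.4% for Chac1, 19.3% for Gpx4, 13.3% for Slc7a11 and 7.5% for Ddit3. The transport and lipid-metabolic genes Slc3a2 and Acsl4 thus had the strongest start regions of the set, and the transcription factor gene Ddit3 the weakest.

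In floxed controls on the standard diet the starts ran from 3.92 ± 0.08 at Slc3a2 through 3.58 ± 0.23 at Acsl4, 3.49 ± 0.21 at Trib3, 3.14 ± 0.36 at Asns, 3.02 ± 0.08 at Gpx4, 2.95 ± 0.27 at Chac1 and 2.84 ± 0.61 at Slc7a11 to 2.59 ± 0.02 at Ddit3 (log2 level, mean ± SD, n = 3). Each neighbouring pair in this order had overlapping libraries, while Slc3a2 and Gpx4, further apart in it, did not overlap. The start of Slc7a11 varied most, with an SD of 0.57 over the 12 libraries, against 0.12 at Ddit3 and 0.16 to 0.28 at the other 6 starts covered.

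**Figure D1:**
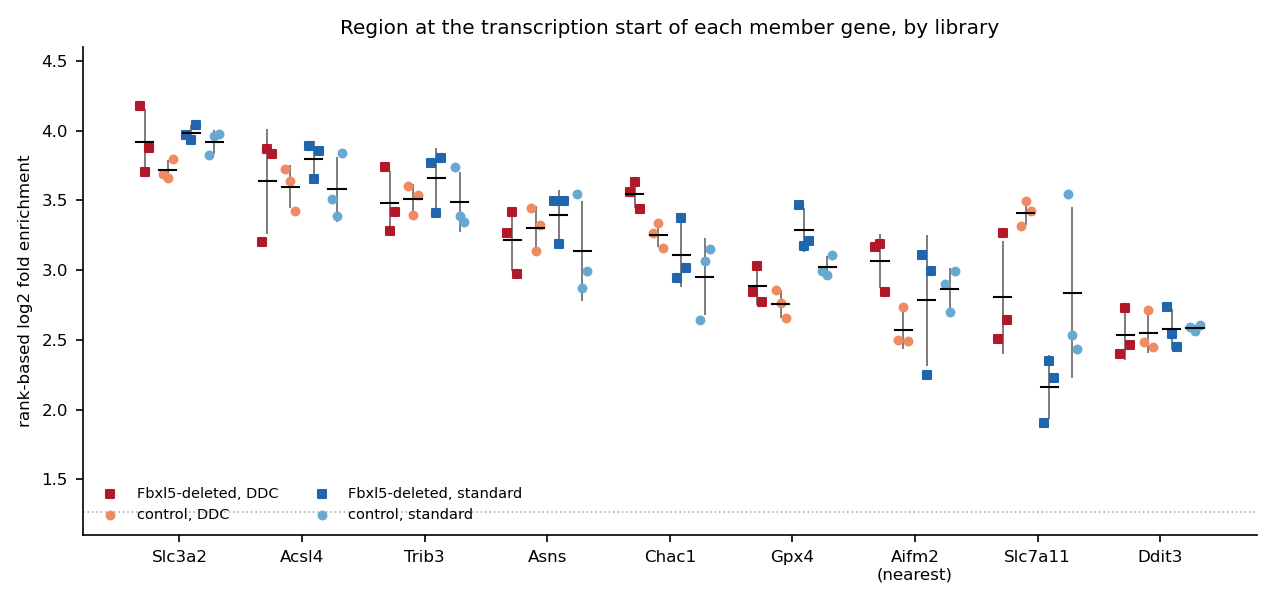
Rank-based log2 fold enrichment (vertical axis) of the region at each gene's transcription start in the 12 libraries, with groups from left to right in the order of the legend; black bars are group means, grey lines the SD (n = 3), and the dotted line is the lowest value, log2 1.27. For Aifm2 the nearest tested region is drawn. Slc7a11 has the widest spread, 1.90 to 3.54, and Ddit3 the narrowest, 2.40 to 2.74.

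In Fbxl5-deleted mice, 0 of the 89 regions passed the test for diet, against 3.17% of all tested regions (2.43% higher and 0.743% lower), with 16 of the 89 (18.0%, against 17.4% of all) at an unadjusted p under 0.05 (limma; 2 passed with limma's trend and robust settings off). A count of 1 was found without Fbxl5-deleted standard-diet library 2 or 3, or without Fbxl5-deleted DDC library 1. The median diet difference there was −0.07 over the 89 regions and 0.01 over all tested.

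In floxed controls, DDC changed 5 of the 89 regions, and none of them was at a transcription start: 2 inside Slc7a11 and 2 at Gpx4 rose, and 1 downstream of Chac1 fell (limma, adjusted p under 0.05). This is 5.62% of the regions, against 7.02% of all tested regions called in the same comparison (4.66% higher and 2.36% lower), a share near the background. Both Slc7a11 regions and 1 of the 2 at Gpx4 were kept in no control standard-diet library, so their p-values rest on the value given to absence. The median difference was −0.04 over the 89 regions and −0.01 over all tested regions. Sets of genes by role split as 0 up and 1 down of 34 regions at the stress response genes Ddit3, Chac1, Trib3 and Asns (Atf4 had no tested region), 2 up and 0 down of 16 at the cystine antiporter genes, and 2 up and 0 down of 39 at Gpx4, Acsl4 and Aifm2. Each of the 2 rising pairs lay at a single gene, so the split is not read as a difference between roles. The count of 5 fell to 1 without control standard-diet library 2 or control DDC library 2, and to 3 without any other library of these groups.

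The diet comparisons of the 2 genotypes share no library, and 55 of the 89 regions (61.8%) had the same sign in both, against 67.6% of all tested regions. Across the 89 regions Pearson's r of the 2 differences was 0.528 (Spearman's rho 0.402), and across all tested regions it was 0.636 (0.538); regions are not independent replicates.

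**Figure D2:**
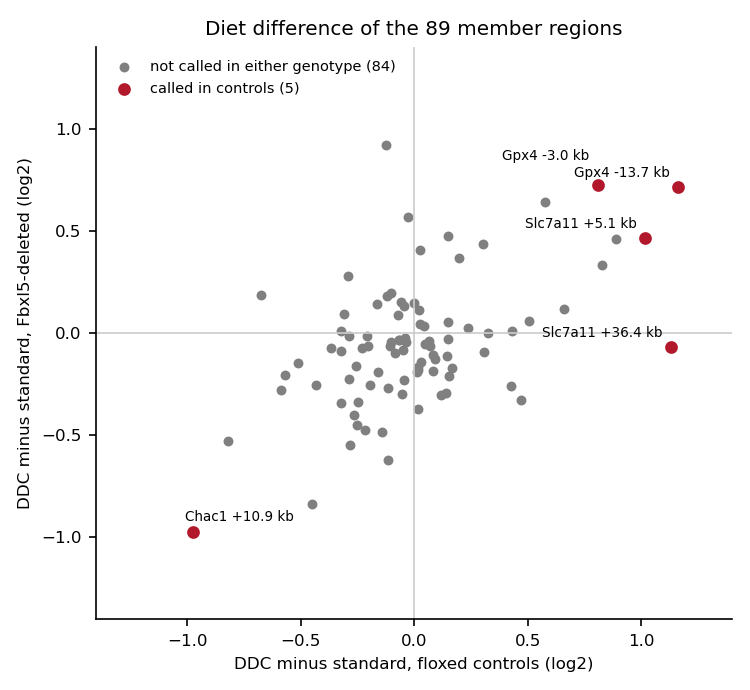
Difference between DDC and standard diet, on the log2 scale, of the 89 tested regions in floxed controls (horizontal axis) and in Fbxl5-deleted mice (vertical axis), with red points for the 5 regions called in controls and the distance from the gene start beside each. The Chac1 region lies at −0.97 on both axes, and the Slc7a11 region 36379 bp from its start at −0.07 in Fbxl5-deleted mice and 1.13 in controls.

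The diet difference averaged over the genotypes, a comparison added after the data were seen, called 9 of the 89 regions, 7 higher and 2 lower on DDC (limma, 10.1%, against 13.0% of all tested regions, 8.1% higher and 4.87% lower). These were the 5 above, with the Slc7a11 start, a region near Slc3a2 and 2 regions upstream of Trib3. By role, 4 of 16 antiporter regions rose and 0 fell, 3 of them in Slc7a11 and 1 near Slc3a2. At the stress response genes 1 of 34 regions rose and 2 fell, and 2 of 39 at Gpx4, Acsl4 and Aifm2 rose, both at Gpx4. Regions of the same gene are not independent, so these splits are not read as differences between roles. The count over all 89 regions was 5 without control standard-diet library 2, control DDC library 1 or 2, or Fbxl5-deleted DDC library 3. Leaving out both libraries that stood apart gave 4. With the log2 number of strong peaks (−log10 q of 5 or more) as a covariate, 1 of 89 passed, and 2 of 89 in floxed controls. Within each genotype this number did not overlap between diets, at 76153 to 86745 on DDC against 65943 to 70517 in controls. In Fbxl5-deleted mice it was 70044 to 78851 against 46949 to 68897. Calls lost with the covariate therefore cannot separate the number of strong peaks from diet.

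**Figure D3:**
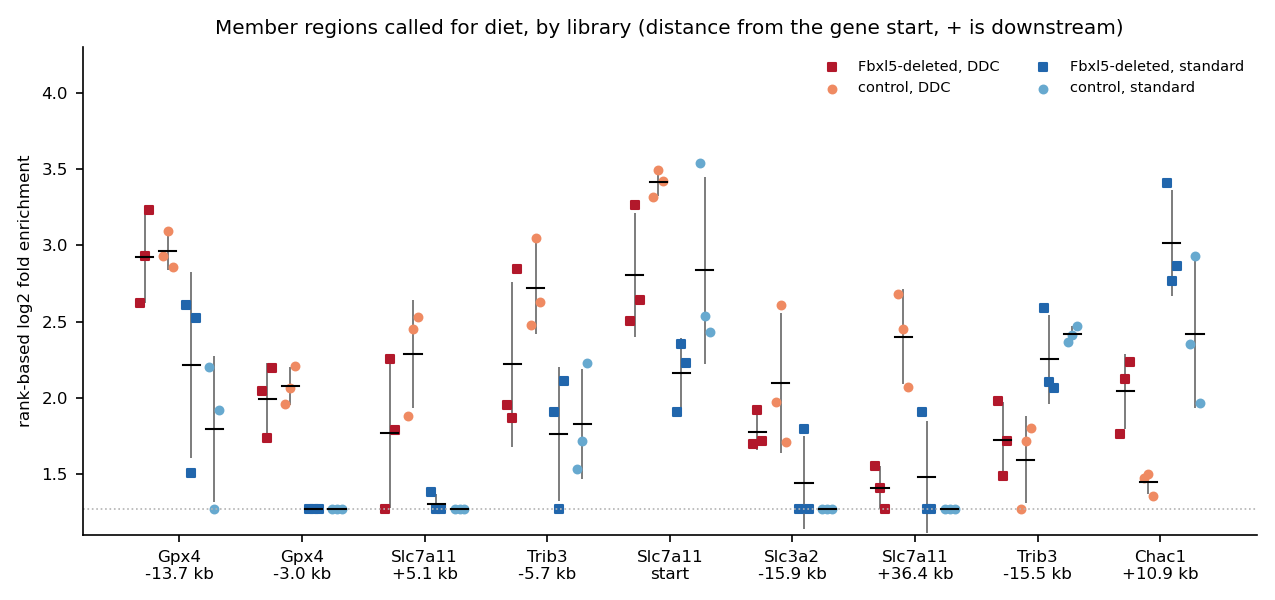
Rank-based log2 fold enrichment (vertical axis) in the 12 libraries of the 9 regions called for diet in floxed controls or over both genotypes, ordered by the difference over both genotypes and labelled with the distance from the gene start; black bars are group means, grey lines the SD (n = 3), and the dotted line is the lowest value, log2 1.27, given to libraries without the region. The Gpx4 region 2998 bp before a start sits at 1.74 to 2.21 in the 6 DDC libraries and at the lowest value in all 6 standard-diet libraries.

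Slc7a11, the transport subunit of the cystine antiporter (chromosome 3, 50364936 to 50499087, minus strand, mm10), had 18 regions, of which 8 were tested and 2 were in all 12 libraries. Several untested regions were kept only in Fbxl5-deleted standard-diet library 1, at its lowest kept fold enrichment of 2.45. The levels of 1.38 given below for that library are from peaks at the same limit. Its start region (50443320 to 50443970), which holds the promoter printed above, had levels of 2.50, 3.26 and 2.64 in Fbxl5-deleted and 3.32, 3.50 and 3.42 in control DDC libraries. On the standard diet the levels were 1.90, 2.35 and 2.23 in Fbxl5-deleted and 3.54, 2.53 and 2.43 in control libraries. Control DDC libraries were uniformly high, Fbxl5-deleted standard-diet libraries were the lowest, and control standard-diet library 1 stood with the DDC controls rather than with the other 2 of its group. The fold enrichments behind these ranks, the authors' own values, were 5.78, 9.98 and 6.25, and 10.4, 13.4 and 11.2, in Fbxl5-deleted and control DDC libraries. On the standard diet they were 3.06, 4.99 and 4.01, and 11.3, 5.80 and 5.33, in Fbxl5-deleted and control libraries.

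The Slc7a11 start rose on DDC by 0.61 ± 0.19 over both genotypes (limma, adjusted p = 0.0396), while neither genotype alone passed, at 0.64 ± 0.27 in Fbxl5-deleted mice (limma, adjusted p = 0.217) and 0.58 ± 0.27 in controls (limma, adjusted p = 0.224). The diets did not overlap in Fbxl5-deleted mice and overlapped in controls through standard-diet library 1. The call was lost without any of 9 single libraries: Fbxl5-deleted DDC 2 or 3, control DDC 1, 2 or 3, Fbxl5-deleted standard 1 or 3, and control standard 2 or 3 (limma, adjusted p = 0.0509 to 0.115). It was also lost without Fbxl5-deleted standard-diet libraries 1 and 3 (limma, adjusted p = 0.199). Settings that ended it were strong peaks alone, at 0.37, joining peaks of different libraries only at 50% reciprocal overlap, at 0.72, no filter on how many libraries hold a region, no trend and robust settings, and the covariate, at 0.38 (limma, adjusted p = 0.0601 to 0.54). The same region had the largest genotype difference of the 9 gene starts drawn, −0.61 ± 0.27 on DDC and −0.68 ± 0.27 on the standard diet, lower in Fbxl5-deleted mice, but neither passed (limma, adjusted p = 0.8 and 0.516), nor did the average, −0.64 ± 0.19 (limma, adjusted p = 0.497).

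Inside Slc7a11, a region 36379 bp downstream of the start (50406827 to 50407234) was stronger in control than in Fbxl5-deleted DDC libraries, a genotype difference that did not pass (limma, adjusted p = 0.326). It was listed in 3 of 3 libraries of both DDC groups. It was among the kept peaks of 2 of 3 Fbxl5-deleted and 3 of 3 control DDC libraries, and of 1 of 3 Fbxl5-deleted and 0 of 3 control standard-diet libraries. Levels were 1.56, 1.41 and 1.27 in Fbxl5-deleted and 2.68, 2.45 and 2.07 in control DDC libraries, and on the standard diet 1.90, 1.27 and 1.27 in Fbxl5-deleted libraries and 1.27 in all 3 controls, where 1.27 stands for absence from the kept peaks. All 3 control DDC libraries thus stood above the other 9. In Fbxl5-deleted mice the diet difference was −0.07 ± 0.24 (limma, adjusted p = 0.916). In controls the rise on DDC passed (limma, adjusted p = 0.00638) and kept passing under all 20 alternative settings that gave it a value (limma, adjusted p = 0.00326 to 0.0418). With only strong peaks the region was not among those tested, so that setting gave no value. The region was absent from every control standard-diet list and entered the test mostly through DDC libraries. Its fitted difference of 1.13 ± 0.24 in controls and the p-values thus rest on the value given to absence, which has no spread. Over both genotypes the rise passed (limma, adjusted p = 0.0443). That call was lost without any of 10 single libraries, all but control DDC 3 and Fbxl5-deleted standard 1 (limma, adjusted p = 0.0567 to 0.102), without Fbxl5-deleted standard 1 and 3 together (limma, adjusted p = 0.0533), and with reciprocal overlap, no filter or the covariate (limma, adjusted p = 0.111 to 0.191). The test of the difference between these diet effects, −1.20 ± 0.34, did not pass (limma, adjusted p = 0.847).

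A second region, 5123 bp downstream of the Slc7a11 start (50437884 to 50438490), was also highest on average in control DDC libraries. Here, unlike at the first, Fbxl5-deleted DDC libraries averaged above Fbxl5-deleted standard-diet libraries. Its levels were 1.27, 2.25 and 1.79 in Fbxl5-deleted and 1.88, 2.45 and 2.53 in control DDC libraries, against 1.38, 1.27 and 1.27 in Fbxl5-deleted standard-diet libraries and absence from all 3 control standard-diet lists. In Fbxl5-deleted mice the diets overlapped, and in controls every DDC library was above every standard-diet library. The difference in Fbxl5-deleted mice, 0.46 ± 0.26, did not pass (limma, adjusted p = 0.369), while the rise passed in controls (limma, adjusted p = 0.0202) and over both genotypes (limma, adjusted p = 0.0102). The only standard-diet library that kept the region, Fbxl5-deleted 1, held it at its lowest kept fold enrichment. These p-values thus rest on the value given to absence, which has no spread. In controls the call was lost without standard-diet library 1, 2 or 3 or without DDC library 2 or 3 (limma, adjusted p = 0.0596 to 0.078), and over both genotypes without Fbxl5-deleted standard 1 and 3 together (limma, adjusted p = 0.0574). Reciprocal overlap, no filter and the covariate ended the call in controls (limma, adjusted p = 0.0847 to 0.313) and over both genotypes (limma, adjusted p = 0.0526 to 0.235), and reciprocal overlap moved the value in controls to 0.60.

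The strongest region of Slc7a11 on average lay 61333 bp downstream of the start (50381553 to 50382280) and did not pass for diet. It had levels of 3.16, 3.24 and 3.17 in Fbxl5-deleted and 3.28, 2.79 and 2.89 in control DDC libraries, and on the standard diet 1.38, 2.35 and 3.08 in Fbxl5-deleted and 3.17, 3.29 and 2.87 in control libraries. Fbxl5-deleted standard-diet libraries 1 and 2 were low and all other libraries lay between 2.79 and 3.29. The diet difference was 0.92 ± 0.29 in Fbxl5-deleted mice (limma, adjusted p = 0.0973) and −0.13 ± 0.29 in controls, and the genotype difference on the standard diet was −0.84 ± 0.29 (limma, adjusted p = 0.436). The 4 other tested regions of the gene were in 3 to 7 libraries, with averages of 1.32 to 1.48.

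**Figure D4:**
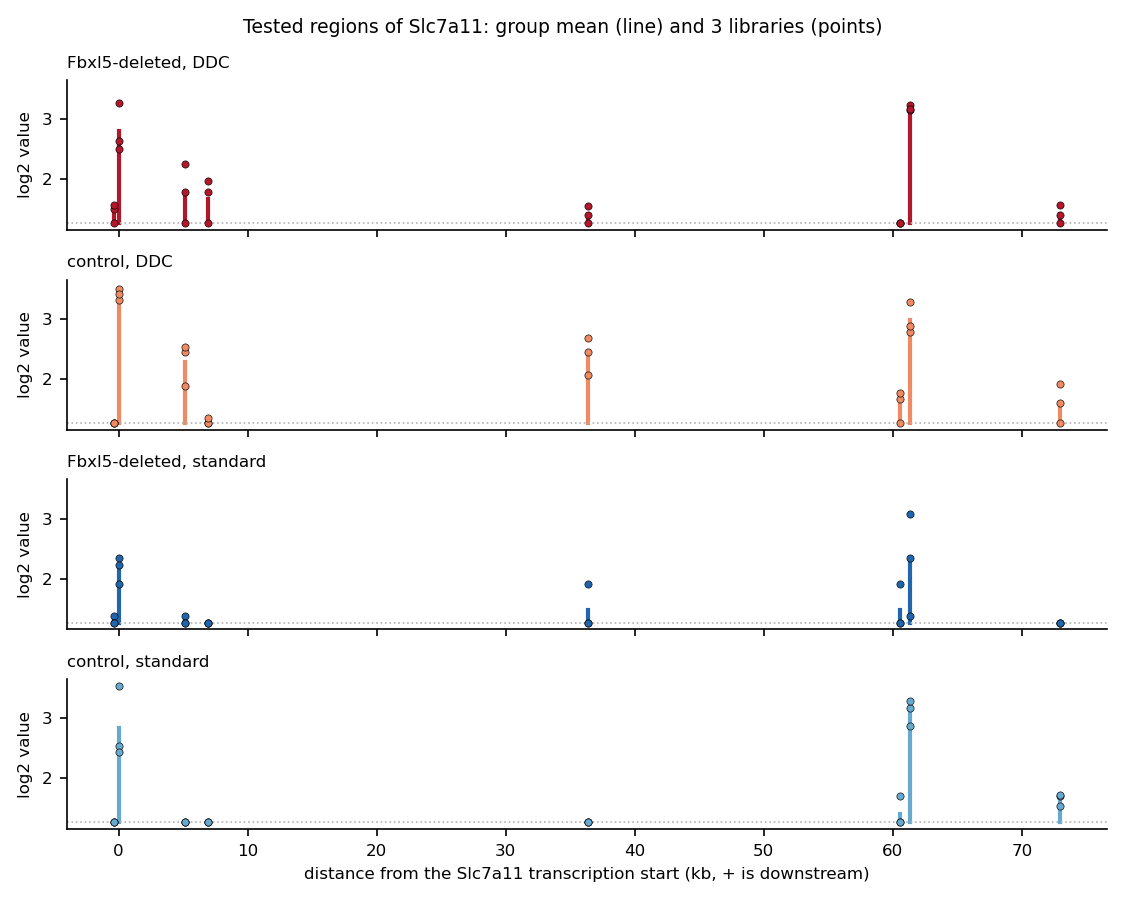
The 8 tested regions of Slc7a11 by distance from the transcription start (horizontal axis, kb, downstream to the right), in 1 panel per group; the vertical axis is the rank-based log2 fold enrichment, lines are means of 3 libraries and points are libraries, and the dotted line is the lowest value, log2 1.27. The region 36379 bp downstream reaches 2.07 to 2.68 in control DDC libraries and lies at 1.27 to 1.90 in the other 9.

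Slc3a2, the heavy chain that carries SLC7A11 and several other amino acid transporters to the membrane (chromosome 19, 8706882 to 8723369, minus strand), had 11 regions, 8 of them tested and 4 in all 12 libraries. Its start region (8713252 to 8714061) had levels of 4.18, 3.70 and 3.87 in Fbxl5-deleted and 3.69, 3.66 and 3.80 in control DDC libraries. On the standard diet the levels were 3.97, 3.93 and 4.04 in Fbxl5-deleted and 3.82, 3.96 and 3.97 in control libraries. The start was thus strong in every library, and neither its diet difference of −0.13 over both genotypes nor its genotype differences of 0.20 on DDC and 0.06 on the standard diet passed. A region at the upstream end of the gene span (8722744 to 8723598) covers the start of the noncoding gene Snhg1. It was of similar strength to the Slc3a2 start, at an average of 3.78.

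The region near Slc3a2 called over both genotypes lies 6443 bp outside the gene (8729812 to 8730186). It was kept in 3 of 3 Fbxl5-deleted and 3 of 3 control DDC libraries, and in 1 of 3 Fbxl5-deleted and 0 of 3 control standard-diet libraries, with 1 control standard-diet list holding it below the rank limit. Levels on DDC were 1.70, 1.92 and 1.72 in Fbxl5-deleted and 1.97, 2.61 and 1.71 in control libraries, so all 6 stood above 5 of the 6 standard-diet libraries, with Fbxl5-deleted standard-diet library 2, at 1.79, among them. The rise passed over both genotypes (limma, adjusted p = 0.0349), a p-value that rests in part on the value given to absence, held by 5 of the 6 standard-diet libraries. The difference of 0.33 ± 0.25 in Fbxl5-deleted mice, where 2 of 3 standard-diet libraries took the lowest value, did not pass (limma, adjusted p = 0.523), and that in controls just missed (limma, adjusted p = 0.0503). It was lost without any 1 of 9 libraries, namely any Fbxl5-deleted DDC library, control DDC library 2, Fbxl5-deleted standard-diet library 1 or 3, or any control standard-diet library (limma, adjusted p = 0.0503 to 0.0868). Without Fbxl5-deleted standard-diet libraries 1 and 3 together it was also lost (limma, adjusted p = 0.278), as it was with no filter (limma, adjusted p = 0.152) and with the covariate, at 0.18 (limma, adjusted p = 0.767).

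Among the stress response genes, Atf4 (chromosome 15, 80255184 to 80257545, plus strand) could not be described. Only 1 weak listed peak, in Fbxl5-deleted standard-diet library 3 with a fold enrichment of 1.72, lay within 20 kb, and the neighbouring genes Mief1 and Rps19bp1 also had 0 listed peaks within 1 kb of them in all 12 libraries. Atf4 was therefore not analysed here, and nothing is read from this stretch about its accessibility.

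Chac1, whose product degrades glutathione (chromosome 2, 119351242 to 119354326, plus strand), had 8 regions, of which 5 were tested, all of them in every library. Its start (119350692 to 119351527) had levels of 3.56, 3.63 and 3.44 in Fbxl5-deleted and 3.27, 3.34 and 3.16 in control DDC libraries. Standard-diet levels were 2.94, 3.37 and 3.01 in Fbxl5-deleted and 2.64, 3.07 and 3.15 in control libraries. The order of the group means was 3.54 ± 0.10, 3.25 ± 0.09, 3.11 ± 0.23 and 2.95 ± 0.27 for these 4 groups (SD, n = 3), and within each genotype all DDC libraries lay above all standard-diet libraries. The diet difference of 0.37 ± 0.13 over both genotypes missed the threshold (limma, adjusted p = 0.062). It passed without Fbxl5-deleted standard-diet library 2, at 0.43 (limma, adjusted p = 0.0365), and with only strong peaks, at 0.38 (limma, adjusted p = 0.0498). Within Fbxl5-deleted mice it was 0.44 and did not pass (limma, adjusted p = 0.21), and the genotype difference over both diets was 0.22 (limma, adjusted p = 0.711).

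Downstream of Chac1 the direction was the opposite. A region 7775 bp beyond the gene (119362101 to 119362649), which overlaps no coding gene, had levels of 1.77, 2.13 and 2.24 in Fbxl5-deleted and 1.48, 1.50 and 1.36 in control DDC libraries. Levels on the standard diet were 3.41, 2.77 and 2.87 in Fbxl5-deleted and 2.36, 2.93 and 1.97 in control libraries, so within each genotype the diets did not overlap. The difference was −0.97 ± 0.28 in Fbxl5-deleted mice, which did not pass (limma, adjusted p = 0.0602), −0.97 ± 0.28 in controls, which passed (limma, adjusted p = 0.0368), and −0.97 ± 0.20 over both, which passed (limma, adjusted p = 0.00218). In controls it was lost without standard-diet library 1 or 2 or without any DDC library (limma, adjusted p = 0.0782 to 0.191), and over both genotypes it held without each single library. With only strong peaks the difference was −0.12 in controls (limma, adjusted p = 0.714) and −0.28 over both genotypes (limma, adjusted p = 0.0814), and with 50% reciprocal overlap both calls were lost (limma, adjusted p = 0.285 in controls and 0.0746 over both). Both calls were also lost with the covariate (limma, adjusted p = 0.161 in controls and 0.185 over both), and that in controls with no filter on regions (limma, adjusted p = 0.163). Fbxl5-deleted libraries were higher than controls by 0.60 ± 0.28 on each diet, which did not pass (limma, adjusted p = 0.825 on DDC and 0.603 on the standard diet).

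At 15618 bp beyond Chac1 (119369944 to 119370616), levels were 2.46, 2.97 and 2.88 in Fbxl5-deleted and 2.32, 1.67 and 1.61 in control DDC libraries, with no overlap. This genotype difference on DDC, 0.90 ± 0.28, did not pass (limma, adjusted p = 0.491), and on the standard diet the difference was 0.04 ± 0.28. The strongest Chac1 region, 12901 bp upstream (119337486 to 119338341), had group means of 3.83 to 3.89, with overlapping libraries in all groups.

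Trib3, a pseudokinase induced by ATF4 and CHOP (chromosome 2, 152337425 to 152344060, minus strand), had 15 regions, of which 13 were tested and 7 were in all 12 libraries. Its start region (152343336 to 152344656) had group means of 3.48 ± 0.23 in Fbxl5-deleted and 3.51 ± 0.11 in control DDC libraries, and of 3.66 ± 0.22 in Fbxl5-deleted and 3.49 ± 0.21 in control standard-diet libraries (SD, n = 3), which overlapped throughout. The strongest region of the window, 152332005 to 152332871, covers the start of the neighbouring gene Rbck1, with an average of 3.64.

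The Trib3 regions called over both genotypes lie upstream and moved in opposite directions. The one 5698 bp upstream (152349758 to 152350337) had levels of 1.95, 1.87 and 2.84 in Fbxl5-deleted and 2.48, 3.05 and 2.63 in control DDC libraries, against 1.91, 1.27 and 2.11 in Fbxl5-deleted and 1.53, 1.72 and 2.23 in control standard-diet libraries. It rose by 0.67 ± 0.22 (limma, adjusted p = 0.0478), in part on the absence from 1 standard-diet library, with overlap between diets in Fbxl5-deleted mice. The one 15495 bp upstream (152359555 to 152360026) had levels of 1.98, 1.48 and 1.71 in Fbxl5-deleted and 1.27, 1.71 and 1.80 in control DDC libraries, against 2.59, 2.10 and 2.06 in Fbxl5-deleted and 2.37, 2.41 and 2.47 in control standard-diet libraries. It fell by 0.67 ± 0.18 (limma, adjusted p = 0.018), in part on the value of 1 DDC library outside the kept peaks, and no DDC library reached the level of any standard-diet library. The rise was lost without any of 8 libraries, namely Fbxl5-deleted DDC 3, control DDC 1, 2 or 3, Fbxl5-deleted standard 1 or 2, or control standard 1 or 2 (limma, adjusted p = 0.0532 to 0.132). The fall was lost without control DDC library 1 (limma, adjusted p = 0.054) or without Fbxl5-deleted standard-diet libraries 1 and 3 together (limma, adjusted p = 0.0922). Settings that ended the rise were all deposited peaks, no filter, no trend and robust settings, and the covariate (limma, adjusted p = 0.0525 to 0.18), and those that ended the fall were reciprocal overlap, no filter and the covariate (limma, adjusted p = 0.063 to 0.397).

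Asns, which makes asparagine (chromosome 6, 7675165 to 7693209, minus strand), had 6 regions, 4 of them tested, and only the start region (7692511 to 7693508) was in all 12 libraries. The start had levels of 3.26, 3.42 and 2.97 in Fbxl5-deleted and 3.45, 3.14 and 3.33 in control DDC libraries, and on the standard diet 3.50, 3.18 and 3.50 in Fbxl5-deleted and 3.55, 2.87 and 3.00 in control libraries. All 4 groups overlapped. At the far end of the gene (7675058 to 7675528) the level was 1.85 ± 0.36 in Fbxl5-deleted and 1.81 ± 0.64 in control DDC libraries, against 2.68 ± 0.26 in Fbxl5-deleted and 2.27 ± 0.13 in control standard-diet libraries (SD, n = 3; absent from 1 control DDC list). Its diet difference over both genotypes, −0.64, just missed the threshold (limma, adjusted p = 0.0514).

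Ddit3, which encodes the transcription factor CHOP (chromosome 10, 127290793 to 127296291, plus strand), had 18 regions, with 12 tested and 5 in all 12 libraries. Its start region (127290457 to 127291294) had levels of 2.40, 2.73 and 2.47 in Fbxl5-deleted and 2.49, 2.72 and 2.45 in control DDC libraries, and on the standard diet 2.74, 2.54 and 2.45 in Fbxl5-deleted and 2.59, 2.56 and 2.60 in control libraries. The diet difference over both genotypes was −0.04. No Ddit3 region passed in any comparison. The strongest region of its window (127311413 to 127312101) covers the start of Mars1, a methionyl-tRNA synthetase gene, and differed by −0.36 ± 0.13 for diet in controls (limma, adjusted p = 0.0932).

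Gpx4, the selenoenzyme that reduces lipid peroxides (chromosome 10, 80047166 to 80056439, plus strand), had 12 regions, of which 9 were tested and 5 were in all 12 libraries. The region over its main cluster of starts (80053041 to 80054367) had levels of 2.85, 3.03 and 2.77 in Fbxl5-deleted and 2.86, 2.76 and 2.66 in control DDC libraries. Standard-diet levels were 3.46, 3.18 and 3.21 in Fbxl5-deleted and 3.00, 2.96 and 3.11 in control libraries. Within each genotype the DDC libraries were all lower than the standard-diet libraries, but the diet difference of −0.33 ± 0.13 over both genotypes did not pass (limma, adjusted p = 0.0921). It passed at −1.60 with 50% reciprocal overlap (limma, adjusted p = 0.00856) and at −0.33 without trend and robust settings (limma, adjusted p = 0.0412).

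The Gpx4 regions that rose lie away from these starts. A narrow one inside the annotated span, 2998 bp before the nearest start downstream of it (80050326 to 80050567), was in 3 of 3 Fbxl5-deleted and 3 of 3 control DDC lists and in 0 of 3 Fbxl5-deleted and 0 of 3 control standard-diet lists. Its levels on DDC were 2.05, 1.74 and 2.19 in Fbxl5-deleted and 1.96, 2.06 and 2.21 in control libraries, and it was listed at no level on the standard diet, so the difference has no true size. The region entered the test through DDC libraries alone, so its p-values rest on the value given to absence, which has no spread. It did not pass in Fbxl5-deleted mice (limma, adjusted p = 0.0768), and passed in controls (limma, adjusted p = 0.0274) and over both genotypes (limma, adjusted p = 0.00209). In controls it was lost without standard-diet library 1, 2 or 3 or without DDC library 2 or 3 (limma, adjusted p = 0.0696 to 0.0834), with no filter on regions (limma, adjusted p = 0.153) or with the covariate (limma, adjusted p = 0.0611). The covariate also ended the call over both genotypes (limma, adjusted p = 0.0587).

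The other called Gpx4 region lies 13712 bp upstream of the gene span (80032760 to 80033454). Its levels were 2.62, 2.93 and 3.23 in Fbxl5-deleted and 2.93, 3.09 and 2.86 in control DDC libraries, and on the standard diet 2.61, 1.51 and 2.52 in Fbxl5-deleted and 2.20, 1.27 and 1.92 in control libraries, where 1.27 stands for absence from library 2. Every DDC library lay above every standard-diet library, though the nearest, 2.62 and 2.61, both in Fbxl5-deleted mice, barely differed. The difference of 0.71 in Fbxl5-deleted mice did not pass (limma, adjusted p = 0.217). The region rose by 1.16 ± 0.30 in controls (limma, adjusted p = 0.0217) and by 0.94 ± 0.21 over both genotypes (limma, adjusted p = 0.00535), in part on the value given to absence. In controls the call was lost without standard-diet library 2, at 0.90 (limma, adjusted p = 0.114), or without DDC library 1 or 2 (limma, adjusted p = 0.061 and 0.0902). It was also lost with only strong peaks, at 0.38 (limma, adjusted p = 0.133), with 50% reciprocal overlap, at 0.83 (limma, adjusted p = 0.511), and with no filter on regions (limma, adjusted p = 0.0977). Over both genotypes reciprocal overlap gave 0.48 and ended the call (limma, adjusted p = 0.505). The next tested region (80033530 to 80034416) differed the other way, by −0.42 ± 0.17 over both genotypes, and did not pass (limma, adjusted p = 0.116). Control standard-diet library 2, absent from the called region, was at 3.48 in this neighbour. A shift of peak boundaries between these neighbouring regions was not tested. The strongest region of the Gpx4 window (80039192 to 80040028) covers the start of Polr2e, an RNA polymerase subunit gene, with an average of 3.67.

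Acsl4, which loads polyunsaturated fatty acids into the lipids that ferroptosis oxidises (chromosome X, 142317993 to 142390802, minus strand), had the most regions of the 10 genes, 28, with 17 tested and 6 in all 12 libraries. Its start (142389828 to 142391113) had levels of 3.20, 3.87 and 3.83 in Fbxl5-deleted and 3.73, 3.64 and 3.43 in control DDC libraries, and on the standard diet 3.89, 3.65 and 3.85 in Fbxl5-deleted and 3.51, 3.39 and 3.84 in control libraries. The groups overlapped, and no Acsl4 region passed in any comparison. The lowest p was at 142336676 to 142337069, which was kept in 3 of 3 Fbxl5-deleted and 2 of 3 control DDC libraries and in 0 of 3 Fbxl5-deleted and 2 of 3 control standard-diet libraries (limma, adjusted p = 0.119 for diet in Fbxl5-deleted mice).

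Aifm2 encodes FSP1, which regenerates antioxidant ubiquinol independently of GPX4 (chromosome 10, 61715263 to 61739260, plus strand), and had 19 regions, with 13 tested and 8 in all 12 libraries. Its 1 start in the RefSeq table, at 61720649, lies inside the span and was under no kept peak in any library. The nearest tested region lay 1462 bp downstream of that start (61722111 to 61722773). That region had group means of 3.06 ± 0.19 in Fbxl5-deleted and 2.57 ± 0.14 in control DDC libraries, and of 2.78 ± 0.47 in Fbxl5-deleted and 2.86 ± 0.15 in control standard-diet libraries (SD, n = 3). On DDC every Fbxl5-deleted library lay above every control library, but the genotype difference of 0.49 did not pass (limma, adjusted p = 0.833). The upstream end of the gene span, 61714897 to 61715582, lies 5067 bp before the tabulated start. It was open in all 12 libraries at an average of 2.91.

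Aifm2 also held the strongest of the 89 regions, 13209 bp downstream of its tabulated start (61733858 to 61734795). Its group means were 4.29 ± 0.04 in Fbxl5-deleted and 4.27 ± 0.17 in control DDC libraries, and 4.35 ± 0.14 in Fbxl5-deleted and 4.37 ± 0.14 in control standard-diet libraries (SD, n = 3), with ranks of 661 to 5331 among 137034 kept peaks. Its libraries overlapped between all groups. A region of nearly that strength in the neighbouring histone variant gene Macroh2a2 (61751671 to 61752430) differed for diet by 0.28 over both genotypes and just missed the threshold (limma, adjusted p = 0.0501). No Aifm2 region was called.

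Between genotypes no region of these genes passed. On DDC, Fbxl5-deleted against control called 0 of 89 regions, with 10 of 89 (11.2%, against 5.94% of all) at an unadjusted p under 0.05 and a lowest adjusted p of 0.326 (limma; 0.0% of all tested regions called). On the standard diet it called 0 of 89, with 4 (4.49%, against 8.09% of all) at an unadjusted p under 0.05 and a lowest adjusted p of 0.436 (limma; 0.000722% of all, a single region). The difference of the diet effects between genotypes called 0 of 89, with 5 (5.62%, against 5.87% of all) at an unadjusted p under 0.05 and a lowest adjusted p of 0.847 (limma; 0.0% of all). Averaged over the diets, a comparison also added after the data were seen, genotype called 0 of 89, with 8 (8.99%, against 7.51% of all) at an unadjusted p under 0.05 (limma; 0.000722% of all). These counts were 0 under all alternatives tried, limma without trend and robust settings among them. Misses at this number of mice do not show that the genotypes were alike, and within each diet the lowest unadjusted p belonged to Slc7a11, on DDC at the region 36379 bp from its start, −0.99 ± 0.24, and on the standard diet at that 61333 bp from its start, −0.84 ± 0.29.

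The following features of the tested regions have no share over all tested regions beside them, so they are not read as particular to these genes. Of the 89, 43 were in all 12 libraries and 25 in 6 or fewer. The median width was 760 bp in the first set and 332.5 bp in those held by 11 libraries or fewer. A region joins the overlapping peaks of all libraries, so this width contrast follows in part from the merging. Only 42 overlapped the span of a gene of the set, 23 overlapped another coding gene and 8 covered the start of another gene. The strongest region of the window belonged to a neighbour's start at Ddit3 (Mars1), Trib3 (Rbck1), Slc3a2 (Stx5a, 8741006 to 8742308, an average of 3.89) and Gpx4 (Polr2e). Of the 9 regions called over both genotypes, 1 was in all 12 libraries at a start (Slc7a11), 1 was in all 12 away from a start (Chac1), and the other 7 were missing from the kept peaks of at least 1 library.

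Wider lists of the same pathways were set against the 3.17% of all tested regions called for diet in Fbxl5-deleted mice (2.43% higher and 0.743% lower) and the 7.02% called in controls (4.66% higher and 2.36% lower). For 55 genes of the integrated stress response and amino acid supply, with 516 tested regions, 13 rose and 1 fell in Fbxl5-deleted mice (2.71% called, 2.52% higher and 0.194% lower) and 13 rose and 10 fell in controls (4.46%, 2.52% higher and 1.94% lower; limma, adjusted p under 0.05). The largest were a region near the leucine transporter gene Slc7a5 (1.82 ± 0.29 in Fbxl5-deleted mice and 2.49 ± 0.29 in controls), one near Eif2s1, the gene of the phosphorylated eIF2 subunit (2.39 ± 0.28 and 2.17 ± 0.28 in the same order), and one near Mthfd2, a mitochondrial folate enzyme gene (1.88 ± 0.26 and 1.95 ± 0.26). A region near Tars, a threonyl-tRNA synthetase gene, was in all 12 libraries and rose by 0.84 ± 0.19 in Fbxl5-deleted mice and 2.01 ± 0.19 in controls. Apart from Tars these differences rest in part on the value given to absence, with 8 to 10 of 12 libraries holding the region.

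For 60 ferroptosis genes, with 741 tested regions, 10 rose and 6 fell in Fbxl5-deleted mice (2.16% called, against 3.17% of all; 1.35% higher and 0.81% lower) and 17 rose and 15 fell in controls (4.32%, against 7.02%, with 2.29% higher and 2.02% lower; limma, adjusted p under 0.05). A region near Gch1, whose enzyme makes the antioxidant cofactor tetrahydrobiopterin, rose by 1.37 ± 0.26 in Fbxl5-deleted mice and 1.82 ± 0.26 in controls. A region near Tfrc, the transferrin receptor gene, fell by 1.33 ± 0.32 in Fbxl5-deleted mice and 1.79 ± 0.32 in controls. Near Bach1, which encodes a heme-sensing repressor, a region fell by 1.55 ± 0.27 in Fbxl5-deleted mice and 0.97 ± 0.27 in controls. The Gch1 and Bach1 regions were in 11 of 12 libraries and the Tfrc region in 10, so these differences too rest in part on the value given to absence. For 26 genes of the unfolded protein response, with 281 tested regions, 3 rose and 2 fell in Fbxl5-deleted mice (1.78% called, against 3.17% of all; 1.07% higher and 0.712% lower) and 5 rose and 5 fell in controls (3.56%, against 7.02%, with 1.78% in each direction; limma, adjusted p under 0.05). At Hspa5, the gene of the chaperone BiP, a region was kept in 3 of 3 libraries of each DDC group and in 0 of 3 of each standard-diet group. It passed in both genotypes (limma, adjusted p = 0.0175 in Fbxl5-deleted mice and 0.00365 in controls). The region entered the test through DDC libraries alone, and every standard-diet library took the same lowest value. These p-values thus rest on the value given to absence, which has no spread, and are not the measure of a rise. Genotype and the difference of diet effects called 0 regions of the 3 lists (limma).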

How the data were processed

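ATAC-seq was done on hepatocytes isolated by collagenase perfusion from 12 mice; other liver cells may be present. Per the submitters' processing notes the build was mm10 and the tools included fastp, Bowtie2, Picard and MACS2, without versions; the sources used here give neither settings nor any read shift for the transposase. The authors deposited 1 peak list per library, with the fold enrichment (a ratio over local background), −log10 p, −log10 q and a score per peak. The lists hold no counts, so depth is known only through the peaks. The strongest 137034 peaks per library by deposited fold enrichment (the length of the shortest list) were merged at 1 bp of overlap, and regions kept in at least 3 of 12 libraries were tested on rank-based log2 values with limma 3.58.1 in R 4.3.3 (trend and robust, 4 group means, two-sided, Benjamini-Hochberg over all 138538 regions, threshold 0.05). The deposited score was not tested. Genes, starts and promoters came from RefSeq tables of GRCm38.p6, whose exons were not used, so exonic or intronic position is not given. Named regions were each gene's start, its strongest region, those called and that with the lowest p; of the wider lists, at most 4 called regions with the largest difference per comparison. Regions outside this rule were chosen after their values were seen. They are the upstream end of the Aifm2 span, the Snhg1 start, the region 15618 bp beyond Chac1, that 5698 bp upstream of Trib3 and the Gpx4 region 80033530 to 80034416. The genes and lists were chosen with earlier results of these data known. The fit was also run on simulated data drawn without a lowest value, so that run does not cover regions absent from libraries. Alternatives changed the window, peak set, overlap, filter, moderation, replicate block and libraries. Python 3.11.15, pandas 2.3.3 and numpy 2.4.6 were used.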

Additional observations from a re-analysis of the deposited data

How the results depend on the processing

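For diet in floxed controls, 5 regions of these genes were called, and the count was 3 with the gene span alone, 0 with only peaks at a −log10 q of at least 5, 1 with no filter on regions, 2 with the covariate added after seeing the data (log2 number of such peaks), and 1 to 6 on leaving out single libraries. For diet in Fbxl5-deleted mice the count was 0, and it was 2 with 50 kb around the genes, 1 with all deposited peaks, 1 with 50% reciprocal overlap, 2 with regions kept in at least 6 libraries, 2 without trend and robust settings, and 0 to 1 on leaving out single libraries. Over both genotypes the count of 9 became 4 with the span alone, 3 with peaks at a −log10 q of at least 5, 5 with reciprocal overlap, 3 with no filter, 4 without Fbxl5-deleted standard-diet libraries 1 and 3, 1 with the covariate, and 5 to 9 on leaving out single libraries. Genotype and interaction counts were 0 throughout. No region followed under these alternatives changed sign, and the cause of the lost calls was not tested. With only peaks at a −log10 q of at least 5, 37 regions of these genes were tested. Of the regions followed, those of Slc3a2 and Trib3 and the Slc7a11 regions 36379 and 5123 bp downstream of its start were not among them. Nor was the Gpx4 region 2998 bp before a start. Libraries of different groups with the same replicate number hardly correlated (18 pairs, r of −0.02 to 0.06), yet 8 of 12 libraries correlated best with their own number. Whether the numbers mark a pairing was thus not settled. With the replicate block, 6 regions were called in controls, 10 over both genotypes and 0 in the other comparisons.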
